A study of Mus musculus with 8 samples.

Results

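Complement is a set of plasma and cell-made proteins that tag damaged cells and microbes and recruit leukocytes. C1q, built from A, B and C chains, starts the classical pathway, C4b and C3 are cut to form the enzyme that amplifies the cascade, factor B (*Cfb*) and properdin (*Cfp*) drive and steady the alternative pathway, and the fragments C3a and C5a act through the receptors C3aR (*C3ar1*) and C5aR1 (*C5ar1*). In the heart, tissue macrophages are a known source of C1q, fibroblasts are a known source of C3, and C5aR1 is carried by neutrophils and other myeloid cells. The 9 genes described here were *C1qa*, *C1qb*, *C1qc*, *C4b*, *C3*, *Cfb*, *Cfp*, *C3ar1* and *C5ar1*, chosen by symbol and each found once among 27998 genes listed for single left ventricular cells of mice.

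The libraries came from left ventricles of 10- to 12-week-old male mice on a C57BL/6 background, of which 3 hearts went into each sample. In IR mice, the left anterior descending coronary artery was tied for 30 min and then released, and sham mice had the operation without this. The records name 4 samples for each condition, with a time of 0 h for sham and 6 h for IR, whereas the protocol places both groups 6 h after surgery. Counts were deposited as 1 matrix per condition, in which no barcode can be traced to its sample. A difference between sham and IR therefore has no replicate check and no test, and every interval below is an exact 95% interval that covers counting error only.

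The sham matrix held 58653308 unique molecular identifiers (UMIs, each 1 captured RNA molecule) in 11620 barcodes, and the IR matrix 75033226 UMIs in 8539 barcodes. Filters kept 11377 sham and 8260 IR cells. Cells were clustered without any complement gene and classes were named from other marker genes, so each class is marker-defined ("macrophage/monocyte-like" and so on). The macrophage/monocyte class had 3363 sham and 2029 IR cells, the fibroblast class 3266 and 1468, and the neutrophil class 240 and 2350. All 10 macrophage/monocyte, 8 fibroblast and 9 neutrophil markers were found in more than 10% of the cells of their own class in both libraries. Depth went with condition: macrophage/monocyte-like cells had a median of 4857 UMIs in sham and 11590 in IR, fibroblast-like cells 5176.5 and 13209.5, and neutrophil-like cells 1615 and 3924. Levels are therefore given as counts per 1000000 UMIs of the class (CPM), which divides this out on average, and fewer cells of a type cannot be told apart from less RNA per cell in the whole-library figures. Counting of 3′ ends gives no level per length, so levels were compared between cells and not between genes.

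The C1q genes lie side by side on the minus strand of chromosome 4 of GRCm38 (mm10), with *C1qb* at 136880129 to 136886187, *C1qc* at 136889804 to 136893065 and *C1qa* at 136895917 to 136898803. They span 18.7 kb with no other annotated gene between them. *C3* (57203970 to 57228136), *C4b* (34728380 to 34743882) and *Cfb* (34856374 to 34862518) are on chromosome 17, *C5ar1* is on chromosome 7 (16246743 to 16259540), *C3ar1* on chromosome 6 (122847138 to 122856161) and *Cfp* on the X chromosome (20925454 to 20931555), all on the minus strand. *Cfb* overlaps the longer same-strand gene *Gm20547*. *C4b* has a near-identical neighbor, *C4a*, that is not among the genes listed for these cells. The counts of *Cfb* and *C4b* are therefore less certain than the others. The RefSeq reference (GRCm38.p6) had start-site windows for 6 of the 9 genes (*C1qb*, *C1qc*, *C3*, *C5ar1*, *C3ar1* and *Cfp*). The 250 bases before the start of *C1qb* and of *C3* are shown because these genes had opposite main sources, macrophages for *C1qb* and fibroblasts for *C3*. The *C1qb* window is chr4:136886201-136886450 and the *C3* window chr17:57228137-57228386, both printed 5′ to 3′ on the gene's strand, with capitals marking matches on either strand to GGAAGT, the core bound by ETS-family factors, or to TTGNGAA, a core of C/EBP-family sites.
C1qb: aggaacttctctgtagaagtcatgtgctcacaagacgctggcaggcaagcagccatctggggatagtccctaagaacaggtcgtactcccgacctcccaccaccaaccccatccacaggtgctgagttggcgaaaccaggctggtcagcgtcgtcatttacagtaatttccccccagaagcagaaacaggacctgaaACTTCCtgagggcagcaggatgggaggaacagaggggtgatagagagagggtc
C3: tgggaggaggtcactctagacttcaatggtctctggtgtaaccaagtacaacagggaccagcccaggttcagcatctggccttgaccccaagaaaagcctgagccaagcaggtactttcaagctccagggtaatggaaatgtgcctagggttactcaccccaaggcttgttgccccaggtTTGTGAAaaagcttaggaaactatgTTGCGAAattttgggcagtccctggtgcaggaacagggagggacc
*C1qb* held 1 GGAAGT match, 53 bases before the start, and no TTGNGAA match. *C3* held 2 TTGNGAA matches, 70 and 45 bases before the start, and no GGAAGT match. Among 32851 windows of this length, 19.7% held GGAAGT and 12.2% held TTGNGAA, so a match is common, and the letters were chosen after these sequences had been seen. Neither window held the TATA box TATAAA, found in 12.4% of all windows.

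The members differed in which cells held their UMIs. Shares are of all kept cells, including those in unnamed clusters or in subclusters led by genes of another class (673 sham and 484 IR cells), which belong to no class here. In sham, the macrophage/monocyte class held 81.3% of *C1qa*, 81.5% of *C1qb* and 81.0% of *C1qc* UMIs, 81.6% of *C3ar1* and 79.0% of *C5ar1*, against 31.2% of all UMIs. It held 60.9% of *Cfb* (57.2 to 64.6), 58.4% of *Cfp* (57.1 to 59.6) and 42.0% of *C4b* (40.5 to 43.5). Fibroblast-like cells, with 30.6% of all UMIs, held 71.4% of *C3* (70.7 to 72.1) and 20.5% of *C4b* (19.3 to 21.8). C1q, the anaphylatoxin receptors and the alternative pathway genes were thus mainly transcripts of the macrophage/monocyte class in sham. *C3* was mainly a fibroblast transcript.

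**Figure D1:**
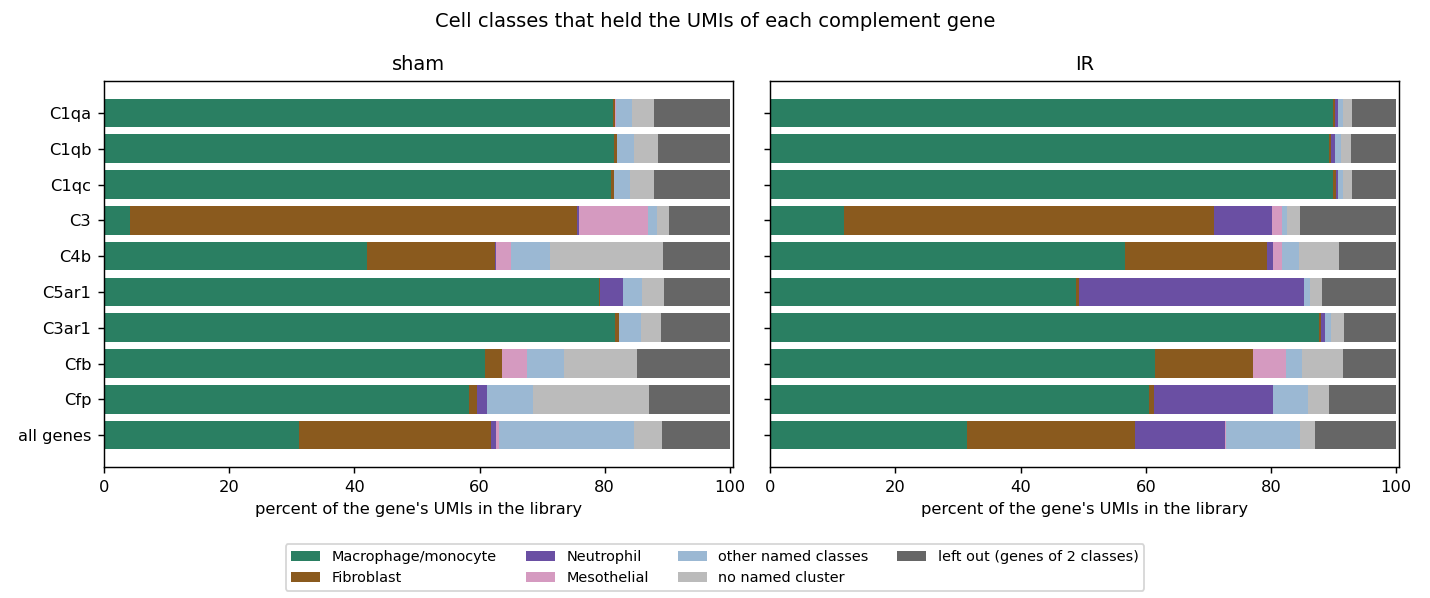
Bars give the percent of each gene's UMIs (x axis) held by each cell class in the sham and IR libraries, with the share of all UMIs in the bottom bar. The *C3* bar is mostly fibroblast in both libraries (71.4% and 58.96%), and the neutrophil part of the *C5ar1* bar is 3.64% in sham and 36.0% in IR.

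In IR, the sources of *C3* and *C5ar1* were spread over more classes. The fibroblast share of *C3* was 58.96% (58.3 to 59.7), the macrophage/monocyte share 11.9% (11.4 to 12.3) against 4.22% in sham, and the neutrophil share 9.34% (8.93 to 9.76). With the limit of 2500 detected genes per cell that the paper states, the fibroblast share of *C3* in IR was 18.4%. The macrophage/monocyte share of *C5ar1* was 48.9% (48.3 to 49.5) and the neutrophil share 36.0% (35.5 to 36.6), while in sham neutrophil-like cells had 3.64% (3.27 to 4.04). Properdin followed the neutrophils too, with 18.9% of *Cfp* UMIs in that class in IR and 1.54% in sham. Neutrophil-like cells held 14.4% of all UMIs in IR and 0.815% in sham, so these shares moved with the size of the class. The C1q shares of the macrophage/monocyte class were 89.8% for *C1qa*, 89.2% for *C1qb* and 90.0% for *C1qc* in IR.

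Small populations held large shares of some members. In sham, 24 mesothelial-like cells, the lining cells of the heart surface, held 1870 of 16876 *C3* UMIs (11.1%, 10.6 to 11.6) with 0.387% of all UMIs, a level of 8300 CPM (7928 to 8685). In IR only 3 such cells were found, at 3366 CPM (2991 to 3775). A cluster of 38 sham cells that stayed unnamed, led by *Alox15*, *Cd5l* and *Serpinb2*, held 723 of 4301 *C4b* UMIs (16.8%, 15.7 to 18.0) and 1056 of 6154 *Cfp* UMIs (17.2%, 16.2 to 18.1) with 0.938% of all UMIs. Its levels were 1324 CPM (1229 to 1424) for *C4b* and 1933 CPM (1819 to 2054) for *Cfp*, and the 6 IR cells of this cluster had 413.6 CPM (322 to 522) and 632.2 CPM (518 to 764). The 38 sham cells also held 79 of 681 *Cfb* UMIs (11.6%, 9.29 to 14.25), at 144.6 CPM (114.5 to 180.3). They had *C1qb* at 6361 CPM (6151 to 6576), found in 100% of them. Schwann-like cells, the glia of peripheral nerves, had *C4b* UMIs in 73.1% of 52 sham cells, at 786.4 CPM (653 to 940). These 3 populations have too few cells for a comparison of conditions, and they were singled out after their values were seen.

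**Figure D2:**
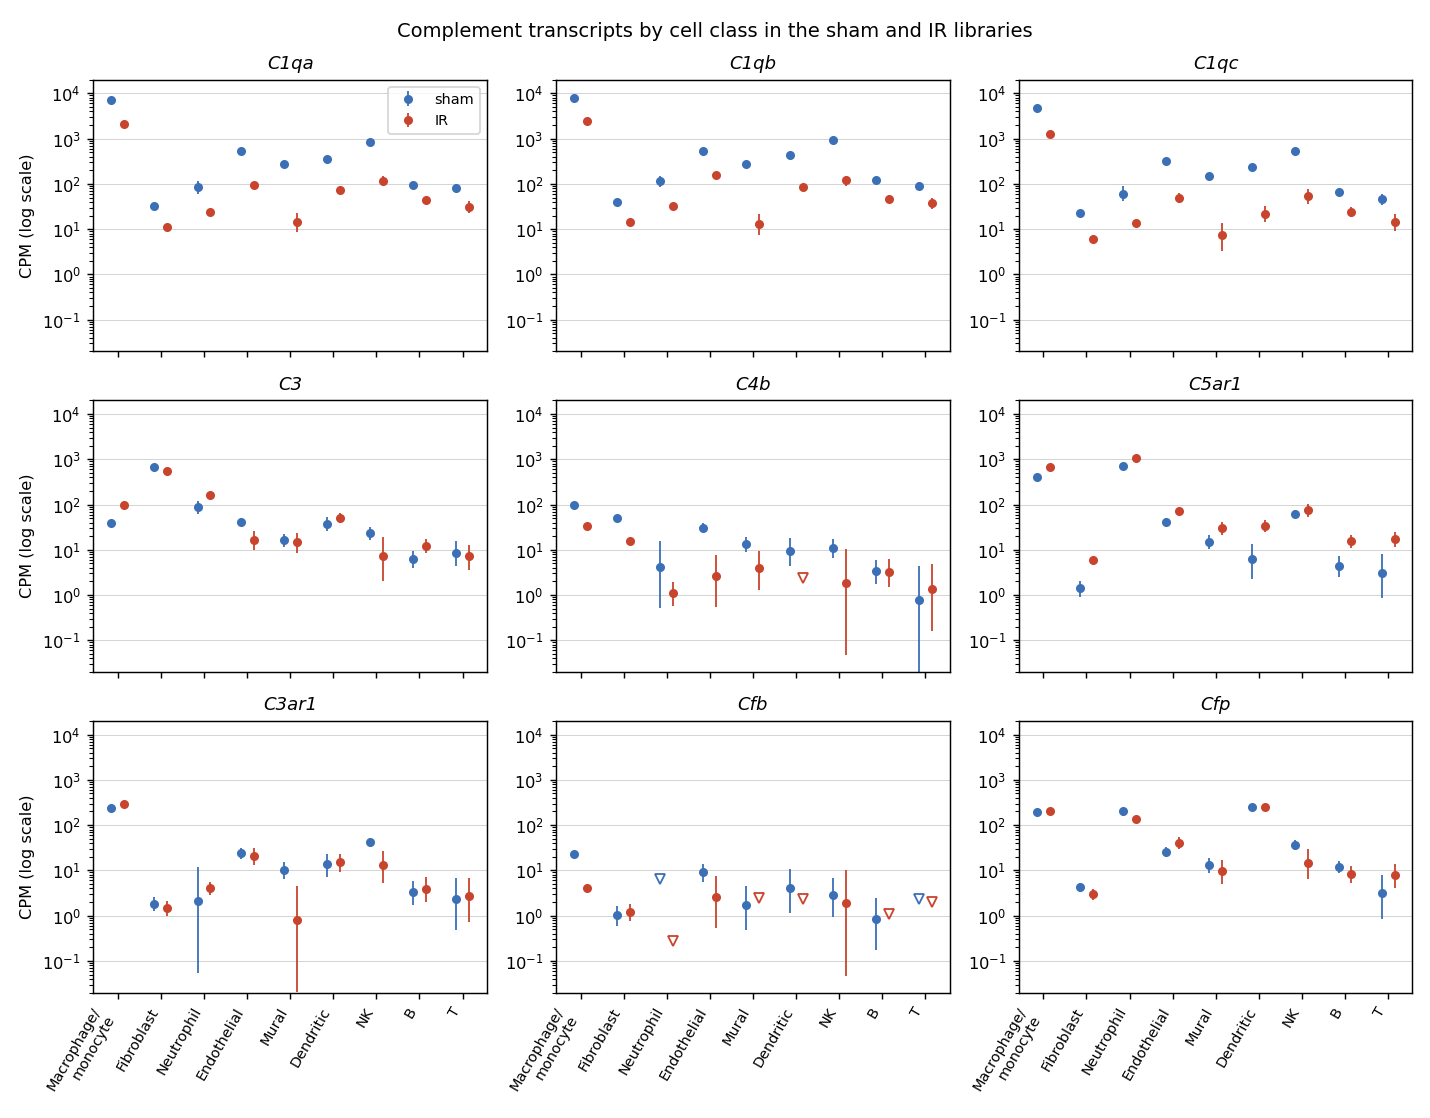
Each panel gives the level of 1 gene in CPM (log scale) in 9 cell classes of the sham and IR libraries, with exact intervals, and open triangles mark a count of 0 drawn at 3 UMIs. Among these 9 classes, which leave out the small mesothelial-like class, *C3* is highest in fibroblast-like cells, *C5ar1* in neutrophil-like cells and *C1qa*, *C1qb* and *C1qc* in macrophage/monocyte-like cells in both libraries.

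RNA free in the suspension gives a low count in cells that do not make a transcript, and B-cell-like and T-cell-like cells served as a gauge of it. The gauge was not matched for depth. B-cell-like cells had a median of 2135 UMIs in sham and 3337 in IR, below macrophage/monocyte-like and fibroblast-like cells. An equal CPM is therefore more UMIs per cell in those deeper classes, here and below. *C1qa* was at 95.7 CPM (85.9 to 106) in B-cell-like and 82.2 CPM (67.2 to 99.5) in T-cell-like cells of sham, and at 43.2 CPM (35.8 to 51.6) and 31.2 CPM (22.9 to 41.5) in IR. Fibroblast-like cells were below this gauge for *C1qa* with 32.2 CPM (29.7 to 35.0) in sham and 11.2 CPM (9.82 to 12.8) in IR, and neutrophil-like cells were at 84.4 CPM (60.3 to 115) and 24.3 CPM (21.4 to 27.4). C1q in these 2 classes was read as background. NK-like and endothelial-like cells of sham had more (860.2 and 537.8 CPM of *C1qa*). So did Schwann-like (961.9 CPM), cardiomyocyte-like (573.9 CPM), dendritic-like (349.6 CPM) and mural-like cells (269 CPM) of sham. An unnamed cluster of 77 sham cells, with *Abcc9* and *Kcnj8* among its leading genes, had 3454 CPM (3303 to 3609). The gauge was below all of these, and the source of their C1q was not tested. *C5ar1* in fibroblast-like cells (1.40 and 5.80 CPM) was below B-cell-like cells (4.42 and 15.5 CPM), and *C3ar1*, *Cfb* and *Cfp* in fibroblast-like cells were at or below 4.26 CPM. *C4b* in fibroblast-like cells was above the gauge, with 49.5 CPM (46.3 to 52.9) against 3.32 CPM (1.71 to 5.80) in B-cell-like cells of sham, while neutrophil-like cells had 2 *C4b* UMIs in sham and 12 in IR. *C3* in neutrophil-like cells was above it in both libraries, at 86.5 CPM (62.1 to 117) against 6.36 CPM (4.03 to 9.54) in sham and 166.3 CPM (159 to 174) against 12.2 CPM (8.47 to 17.1) in IR.

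The C1q chains, which only work as a joint complex, were lower in macrophage/monocyte-like cells of IR. *C1qa* was at 7306 CPM (7266 to 7345) in sham and 2135 CPM (2116 to 2154) in IR, a log2 ratio of -1.77 (-1.79 to -1.76). *C1qb* was at 7955 CPM (7914 to 7997) and 2440 CPM (2420 to 2460), with a log2 ratio of -1.71 (-1.72 to -1.69). *C1qc* was at 4642 CPM (4611 to 4674) and 1282 CPM (1267 to 1296), with a log2 ratio of -1.86 (-1.88 to -1.84). Of all C1q UMIs in the class, *C1qa* made up 36.7% in sham and 36.5% in IR, *C1qb* 40.0% and 41.7%, and *C1qc* 23.3% and 21.9%.

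The lower class level went with fewer C1q-positive cells. UMIs of all 3 chains were found in 90.1% of sham (89.1 to 91.1) and 48.2% of IR macrophage/monocyte-like cells (46.0 to 50.4), although the IR cells were deeper. When each cell was thinned to 1000 UMIs, which left out 11 sham and 7 IR cells, *C1qa* was found in 89.5% (88.4 to 90.5) and 44.6% (42.4 to 46.8). In unthinned cells these shares were 91.9% and 54.5%, and in B-cell-like cells 11.4% and 7.47% had a *C1qa* UMI, at a median depth of 2135 and 3337 UMIs. The thinned cells fell into a C1q-poor and a C1q-rich group: no C1q UMI was drawn in 9.10% of sham (8.15 to 10.1) and 49.0% of IR cells (46.8 to 51.2), and 58.3% of sham (56.6 to 59.9) and 9.89% of IR cells (8.62 to 11.3) had 20 to 49 C1q UMIs.

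**Figure D3:**
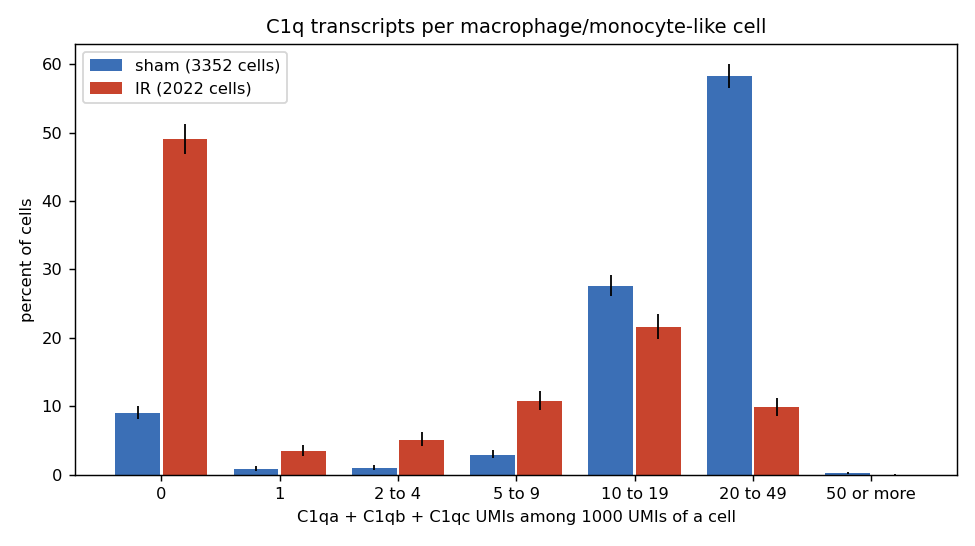
Bars give the percent of macrophage/monocyte-like cells (y axis) by the number of C1q UMIs among 1000 UMIs drawn from the cell (x axis), with exact intervals. In sham, 58.3% of 3352 cells have 20 to 49 C1q UMIs, and in IR 49.0% of 2022 cells have none.

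The subclusters of the class separated C1q-rich from C1q-poor cells within each library. Subclusters were named from state markers without complement genes, and nearly every subcluster came from 1 library, so state and condition cannot be told apart. The same holds for the fibroblast class and for the neutrophil class, in which 173 of 240 sham cells were in a subcluster with 5 IR cells. In sham, C1q was at 20060 CPM in 1278 MHCII cells, 25380 CPM in 1253 cells led by interferon-response genes and 25000 CPM in 479 Lyve1 cells, and 98.9% to 100% of these cells had all 3 chains. In IR, 910 Lpl/Gdf15 cells had 13740 CPM, and all 3 chains were found in 97.1% (95.8 to 98.1) of them. The remaining IR subclusters were C1q-poor, with 242.7 CPM in 669 Thbs1/Arg1 recruited cells, 203.9 CPM in 328 Ly6c2 monocytes and 84.5 CPM in 77 nonclassical monocytes. In sham, a subcluster of 293 cells stayed unnamed, with *Ly6c2*, *Ly6i*, *Plac8*, *Irf7*, *Oas3* and *Ace* among its leading genes. Its best marker score was for nonclassical monocytes (1.73), and the interferon state was next (1.62). These cells had C1q at 900.0 CPM, and 7.85% (5.04 to 11.6) of them had all 3 chains. The C1q-rich IR subcluster was thus below the C1q-rich sham subclusters, and the C1q-poor IR subclusters were lower still.

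The chains were not in the same proportion in the C1q-poor IR cells. *C1qb* made up 56.5% (54.4 to 58.7) of the C1q UMIs of Thbs1/Arg1 recruited cells and 51.1% (47.7 to 54.5) of those of Ly6c2 monocytes, against 41.4% (41.1 to 41.6) in Lpl/Gdf15 cells and 41.0% (35.5 to 46.6) in B-cell-like cells of the same library. *C1qa* made up 22.4% (20.6 to 24.2) and 25.7% (22.8 to 28.8) in those cells and 36.7% (36.5 to 37.0) in Lpl/Gdf15 cells. In the other classes with at least 50 IR cells, *C1qb* made up 44.8% (35.9 to 53.9) in T-cell-like and 46.6% (43.0 to 50.2) in neutrophil-like cells. It made up 52.8% (47.3 to 58.1) in endothelial-like, 45.7% (41.8 to 49.7) in fibroblast-like and 46.5% (39.9 to 53.2) in dendritic-like cells. NK-like, mural-like and cardiomyocyte-like cells had 41.3% (33.45 to 49.5), 37.2% (23.0 to 53.3) and 65.0% (40.8 to 84.6), the last from 20 C1q UMIs. The interval of Ly6c2 monocytes overlaps all of these other classes. That of Thbs1/Arg1 recruited cells overlaps only the endothelial and cardiomyocyte ones. The part of free RNA in these counts was not tested. In sham, the C1q-poor unnamed subcluster had 41.8% *C1qb* (39.7 to 44.0), close to the 43.4% (40.4 to 46.5) of B-cell-like cells.

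**Figure D4:**
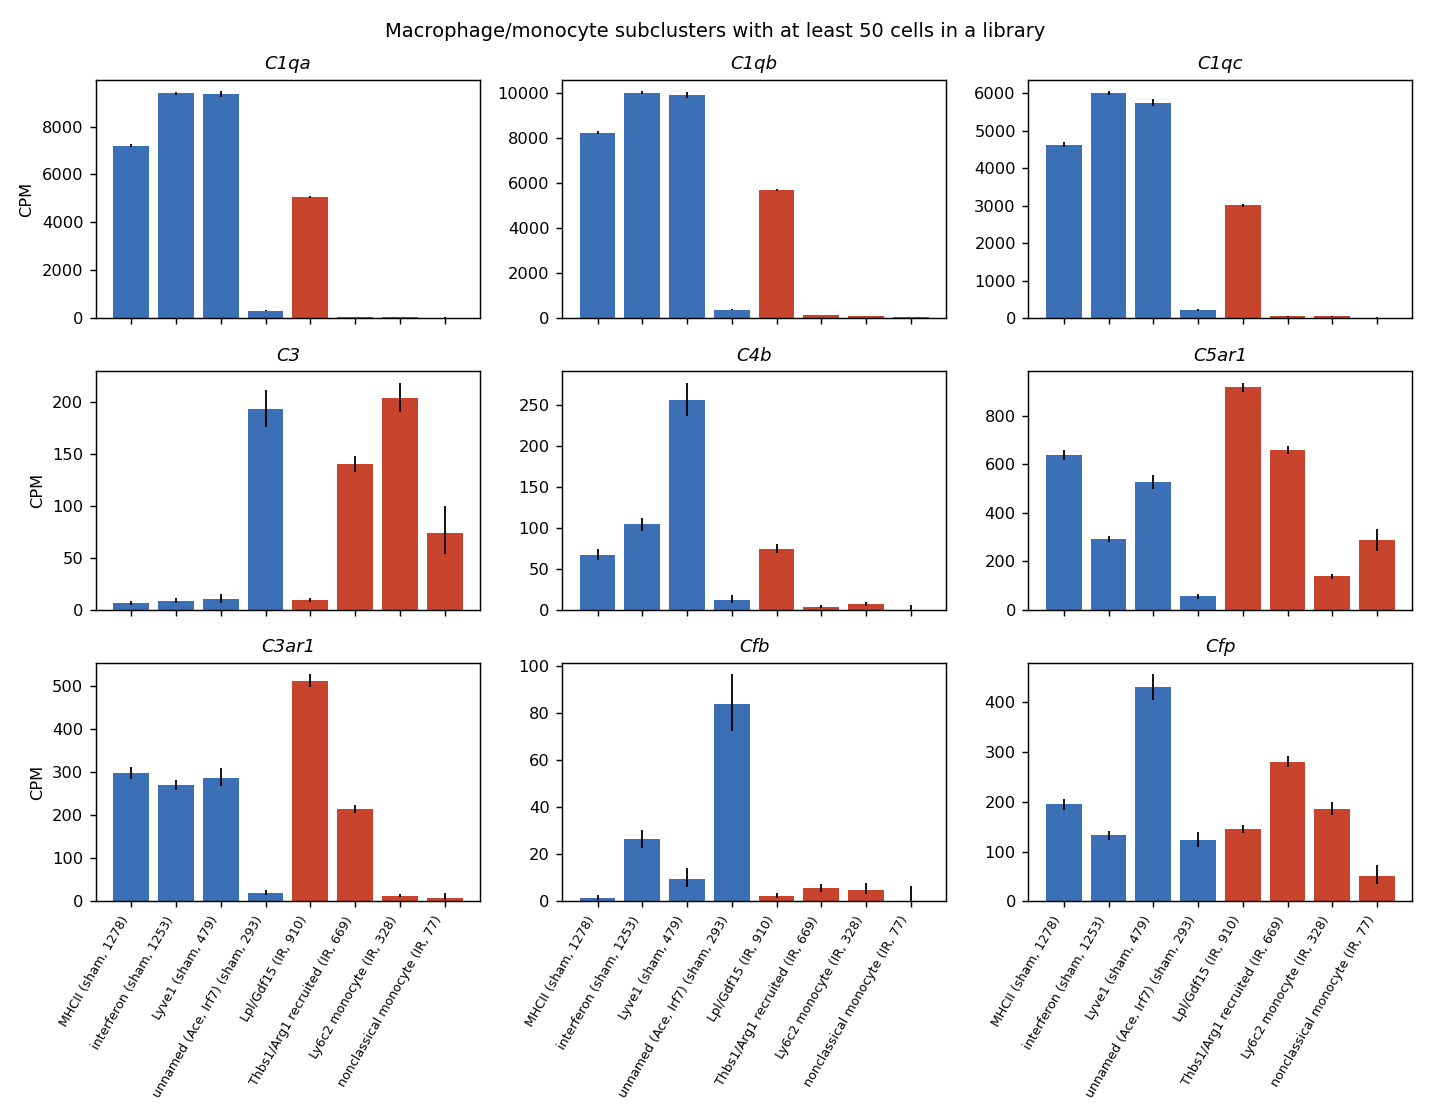
Bars give the level of each gene in CPM (y axis) in macrophage/monocyte subclusters with at least 50 cells in a library (blue sham, red IR, number of cells in parentheses), with exact intervals. The C1q genes are high in 3 of 4 sham subclusters and in the Lpl/Gdf15 subcluster of IR, and *C3* is high in the other subclusters.

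*C4b*, whose protein joins C2 in the classical convertase, was lower in IR in both of its main classes. In macrophage/monocyte-like cells it was at 99.4 CPM (94.8 to 104) in sham and 33.0 CPM (30.8 to 35.5) in IR, a log2 ratio of -1.59 (-1.71 to -1.47), or -2.25 with a limit of 2500 genes per cell. In fibroblast-like cells it was at 49.5 CPM in sham and 15.4 CPM (13.8 to 17.3) in IR, a log2 ratio of -1.68 (-1.87 to -1.49), or -0.95 with that limit. Within sham macrophages, *C4b* was at 256.1 CPM (237 to 277) in Lyve1 cells, 104 CPM (96.6 to 112) in the interferon subcluster and 67.2 CPM (60.8 to 74.2) in MHCII cells. In IR it was at 74.3 CPM (68.9 to 80.0) in Lpl/Gdf15 cells and at 3.80 CPM (2.60 to 5.36) in Thbs1/Arg1 recruited cells, the latter at the 3.24 CPM (1.48 to 6.14) of B-cell-like cells. In the fibroblasts of sham, the adventitial subcluster had 16.3 CPM (11.9 to 21.7) and the 2 largest subclusters had 52.8 CPM (47.7 to 58.3) and 59.4 CPM (53.9 to 65.2).

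*C3*, the central component, had a lower ratio in fibroblasts than in the myeloid classes. In fibroblast-like cells it was at 675.6 CPM (664 to 688) in sham and 562.3 CPM (552 to 573) in IR, a log2 ratio of -0.27 (-0.30 to -0.23), and a *C3* UMI was found in 35.3% (33.6 to 37.0) and 33.4% (30.9 to 35.8) of cells at 1000 UMIs. In macrophage/monocyte-like cells it was at 39.2 CPM (36.3 to 42.1) and 96.7 CPM (92.8 to 100.8), a log2 ratio of 1.30 (1.18 to 1.43). That ratio was 2.58 at 10% mitochondrial UMIs and 2.52 after removal of cells by doublet score, where the cluster led by *Ly6i* and *Ly6c2* (409 sham cells in the first) did not reach the score for a macrophage/monocyte name. In neutrophil-like cells it was at 86.5 and 166.3 CPM, a log2 ratio of 0.94 (0.50 to 1.43), or 1.12 relative to the median of all genes in the class, and 0.41 with classes from own markers. Neutrophil markers moved with these classes: the 9 markers summed to 389.3 CPM in macrophage/monocyte-like cells of sham (2 in over 10% of cells) and 1353 CPM in IR (6 of 9), to 35.9 and 444.3 CPM in fibroblast-like cells, and to 195400 and 135500 CPM in neutrophil-like cells. No neutrophil marker was at 0 in the macrophage/monocyte class, *Ly6g* was at 0 in fibroblast-like cells of sham, and the part of these markers in the *C3* and *C5ar1* values was not tested.

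Within the macrophage/monocyte class, *C3* ran opposite to C1q. It was at 6.13 CPM (4.29 to 8.48), 8.86 CPM (6.79 to 11.4) and 10.7 CPM (7.08 to 15.6) in the MHCII, interferon and Lyve1 subclusters of sham, and at 9.39 CPM (7.54 to 11.6) in Lpl/Gdf15 cells of IR, levels near those of B-cell-like cells. It was at 193.3 CPM (176 to 212) in the unnamed C1q-poor subcluster of sham. In IR, Ly6c2 monocytes had 204.4 CPM (191 to 219) and Thbs1/Arg1 recruited cells 140.1 CPM (132 to 148). Nonclassical monocytes of IR had 74.2 CPM (53.7 to 99.9). The 37 sham cells of the Ly6c2 monocyte subcluster had 368.7 CPM (310 to 436), above the 328 IR cells of the same subcluster. The C1q-rich subclusters with at least 50 cells were thus at 10.7 CPM or less in both libraries, and the *C3* UMIs of the class lay in the C1q-poor ones.

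*C3* also varied among fibroblasts and neutrophils. Adventitial fibroblasts of sham had 867.1 CPM (833 to 902), and the sham subcluster led by *Apod* and interferon-response genes had 527.7 CPM (511 to 544). In IR, the injury subcluster (825 cells led by *Csf2*, *Cxcl5* and *Ccl2*) had 419.9 CPM (409 to 431) and the subcluster led by *Galnt15*, *Dbp* and *Zbtb16* (548 cells) had 859.9 CPM (837 to 883). Among IR neutrophils, *C3* was at 74.0 CPM (61.2 to 88.6) in the blood-like subcluster and 234.5 CPM (216 to 254) in the larger activated subcluster. The 59 blood-like neutrophils of sham had 93.3 CPM (54.3 to 149), with an interval that overlaps that of IR.

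The alternative pathway genes parted. *Cfb* had 415 UMIs in macrophage/monocyte-like cells of sham and 94 in IR, at 22.8 CPM (20.7 to 25.1) and 4.02 CPM (3.25 to 4.92), a log2 ratio of -2.51 (-2.84 to -2.18) that was -1.66 at 10% mitochondrial UMIs and -1.67 after removal of cells by doublet score. Of the sham UMIs, 193 were in the unnamed subcluster of 293 cells, at 83.8 CPM (72.4 to 96.5). Another 185 were in the interferon subcluster, at 26.4 CPM (22.8 to 30.5), while MHCII cells had 1.36 CPM (0.588 to 2.68). Both *Cfb*-bearing sham subclusters had interferon-response genes (*Irf7*, *Oas3*, *Ifit2* or *Ifit3*) among their leading genes, and the part of these genes in the result was not tested. Neutrophil-like cells had 0 *Cfb* UMIs in both libraries, where 3 UMIs would be 6.33 CPM in sham and 0.280 CPM in IR and the exact upper limits are 7.78 and 0.344 CPM.

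*Cfp*, made by myeloid cells, was at 197.6 CPM (191 to 204) in sham and 201.6 CPM (196 to 207) in IR macrophage/monocyte-like cells, a log2 ratio of 0.029 (-0.034 to 0.092) whose sign turned under 3 other settings (-0.019 to -0.38). In neutrophil-like cells it was at 200.4 CPM (162 to 245) and 137.6 CPM (131 to 145), a log2 ratio of -0.54 (-0.84 to -0.23). Dendritic-like cells had a similar level in both libraries, 251.2 CPM (220 to 285) and 257.7 CPM (231 to 287). Lyve1 cells of sham were the highest subcluster for *Cfp*, with 429.9 CPM (405 to 456), and Thbs1/Arg1 recruited cells the highest in IR, with 281.1 CPM (270 to 293).

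Both receptors were higher in macrophage/monocyte-like cells of IR, by less than 2-fold. *C5ar1* was at 405.8 CPM (397 to 415) in sham and 659.9 CPM (650 to 670) in IR macrophage/monocyte-like cells, a log2 ratio of 0.70 (0.66 to 0.74). In neutrophil-like cells it was at 717.1 CPM (643 to 798) and 1061 CPM (1042 to 1081), a log2 ratio of 0.56 (0.41 to 0.72) that was 1.15 with classes from own markers, and it was found in 52.4% (45.7 to 59.1) and 62.9% (60.8 to 64.9) of cells at 1000 UMIs. *C3ar1* was at 244.6 CPM (237 to 252) and 293.7 CPM (287 to 301) in macrophage/monocyte-like cells, a log2 ratio of 0.26 (0.21 to 0.32). In neutrophil-like cells *C3ar1* had 1 UMI in sham and 43 in IR, 4.01 CPM (2.91 to 5.41), at the 3.96 CPM (1.98 to 7.08) of B-cell-like cells, so neutrophils carried *C5ar1* without detectable *C3ar1* above background.

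Within the macrophage/monocyte class, both receptors were highest in the C1q-rich cells of IR. Lpl/Gdf15 cells had 917.6 CPM of *C5ar1* (898 to 937) and 512.8 CPM of *C3ar1* (499 to 527), and Thbs1/Arg1 recruited cells 658.9 CPM (642 to 676) and 214.4 CPM (205 to 224). Ly6c2 monocytes had 138 CPM of *C5ar1* (127 to 150) and 12.8 CPM of *C3ar1* (9.56 to 16.7). In sham, *C5ar1* was at 639.9 CPM (620 to 661) in MHCII cells, 527.8 CPM (500 to 557) in Lyve1 cells and 292.6 CPM (280 to 305) in the interferon subcluster, whereas *C3ar1* was between 270.6 and 297.2 CPM in all 3. At 1000 UMIs, both receptors were found in 7.91% (7.01 to 8.87) of sham and 11.9% (10.5 to 13.4) of IR macrophage/monocyte-like cells.

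Read against all genes, the members stood on the lower side in the macrophage/monocyte class. Of the 10722 genes with at least 50 UMIs in macrophage/monocyte-like cells, 8.7% were at least 2-fold higher and 11.5% at least 2-fold lower in IR, and of the 9 members 1 (*C3*) was higher and 5 (*C1qa*, *C1qb*, *C1qc*, *C4b* and *Cfb*) lower. The members' median log2 ratio was -1.59 and that of all these genes -0.056. In fibroblast-like cells, 10.4% of 11447 genes were at least 2-fold higher and 14.0% lower. Of 8 members with enough UMIs there, 1 (*C5ar1*) was higher and 4 (the C1q genes and *C4b*) lower, and among these only *C4b* was above the level of B-cell-like cells. In neutrophil-like cells, 10.4% of 5999 genes were at least 2-fold higher and 15.2% lower, the median of all genes was -0.18, and of 6 members none was higher and 3 (the C1q genes) were lower, all 3 at or below the level of B-cell-like cells in IR. The C1q chains share a locus and are not independent members of these counts.

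**Figure D5:**
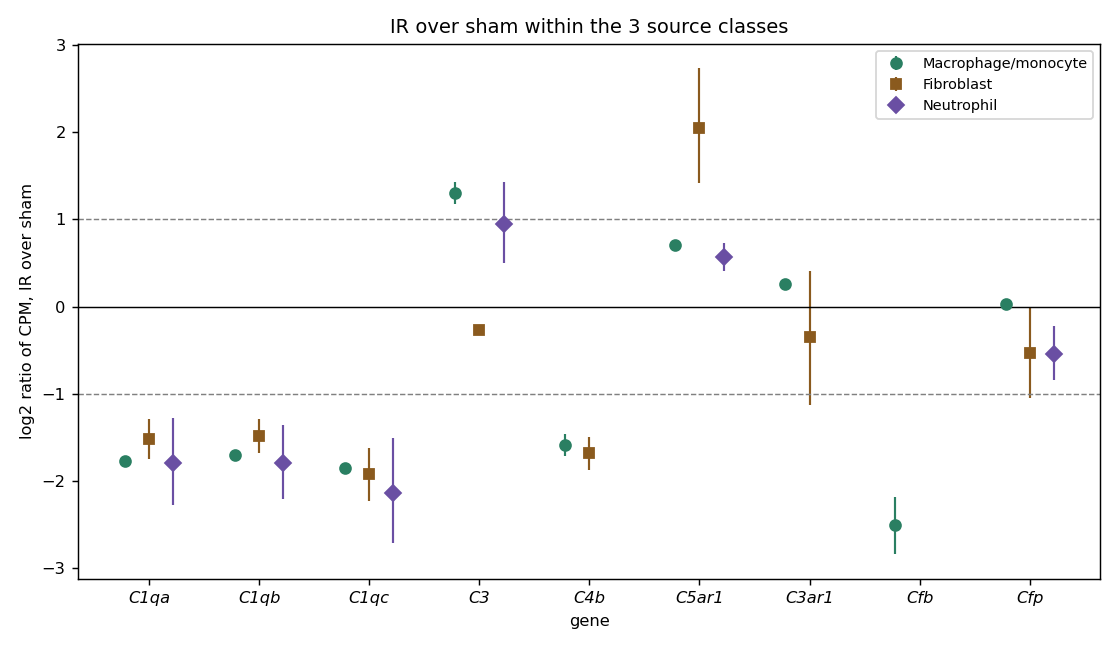
Points give the log2 ratio of CPM, IR over sham (y axis), of each gene with at least 50 UMIs in the class, with exact intervals, and dashed lines mark 2-fold. *C3* is above 0 in the macrophage/monocyte (1.30) and neutrophil (0.94) classes and below 0 in the fibroblast class (-0.27).

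Of 43 other complement genes, 12 were at 20 CPM or more in macrophage/monocyte-like cells of either library. Of these, 2 were at least 2-fold higher in IR and none lower. With at least 50 UMIs as the filter, 17 genes qualified, with 2 higher and 1 lower. Of all genes under that filter, 8.7% were higher and 11.5% lower. The higher genes were *Itgam*, the alpha chain of complement receptor 3, at 107.9 CPM (sham) and 507.5 CPM (IR) with a log2 ratio of 2.23 (2.17 to 2.30), and *Itgax*, the alpha chain of complement receptor 4, with a log2 ratio of 1.04 (0.82 to 1.26).

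In fibroblast-like cells 10 of the 43 genes were at 20 CPM or more, of which 2 were higher and 1 was lower. With at least 50 UMIs as the filter, 21 genes qualified, with 5 higher and 5 lower. Of all genes under that filter, 10.4% were higher and 14.0% lower. *C1qbp*, a mitochondrial protein that also binds C1q, was at 88.3 and 316.1 CPM, a log2 ratio of 1.84 (1.76 to 1.92), and *C7*, a part of the membrane attack complex, at 11.4 and 26.7 CPM, a log2 ratio of 1.23 (0.99 to 1.47). *C1ra*, a protease of the C1 complex with a close paralog that reads could be split with, was at 195 and 80.2 CPM, with a log2 ratio of -1.28 (-1.37 to -1.20). *Serping1*, the inhibitor of the C1 proteases, was at 1979 and 1099 CPM, within 2-fold. In neutrophil-like cells 9 genes were at 20 CPM or more, of which 3 were higher and 1 lower. Of all genes with at least 50 UMIs there, 10.4% were higher and 15.2% lower. *Itgam* was at 223.6 and 548.3 CPM with a log2 ratio of 1.29 (1.02 to 1.58), *Itgax* had a log2 ratio of 1.49 (0.26 to 3.13) and *Cd93* of 1.02 (0.13 to 2.095), while *Serping1* had a log2 ratio of -1.36 (-2.31 to -0.25) with only 10 UMIs in sham.

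Over 20 combinations of class and library with at least 50 cells, the genes whose log2(CPM + 10) was most like a member's were drawn from 10122 genes. This is a description, since the points share libraries and background RNA. *C1qa*, *C1qb* and *C1qc* were each most like the other chains (Pearson r of 0.988 to 0.992) and next like *Folr2* (0.947 to 0.965). *C3* was most like *Igfbp6* (0.883), *Mgst1* (0.84) and *Pi16* (0.838). *C4b* was most like *Cd276* (0.947), *Nradd* (0.918) and *Scamp5* (0.914), and *Cfb* most like *Siglec1* (0.92), *Tanc2* (0.918) and *Plxna4os1* (0.913). *C5ar1* was most like *Pla2g7* (0.964), *Bst1* (0.938) and *Slc15a3* (0.933), *C3ar1* most like *Slc7a8* (0.957), *Mrc1* (0.934) and *F13a1* (0.916), and *Cfp* most like *Mpeg1* (0.962), *Plbd1* (0.962) and *Clec4a2* (0.954). *C3* and *C1qa* had an r of -0.11.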

How the data were processed

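Left ventricular cells of sham and IR mice were profiled by 10× Chromium 3′ sequencing. Per the matrix headers and the labels, the counts came from Cell Ranger 3.1.0 and mm10, whereas the paper's reporting summary names an earlier Cell Ranger version. The authors deposited raw UMI counts as 1 matrix for each condition. Both matrices hold 30 of the same barcodes. Cells with at least 200 genes and at most 30% mitochondrial UMIs were kept, with no upper limit on genes. The paper also states that cells with more than 2500 detected genes were filtered out, a limit used here only as an alternative. Of the kept cells, 1600 in sham and 3380 in IR were above it. In each condition the limit leaves fewer cells than the paper counts, so whether its cells were filtered this way is unclear. Counts were scaled to 10000, and 2000 variable genes without complement genes, 30 principal components, 30 neighbors and Leiden clustering at resolution 0.8 were used (Python 3.11.15, scikit-learn 1.9.0, leidenalg 0.10.2). A class name needed a marker score (mean log2 ratio to all clusters) of at least 0.5, a lead of 0.6 over the next class and 3 detected markers. Source classes were clustered again, and 10 subclusters with genes of another class (673 sham and 484 IR cells) were left out. These thresholds were set after the clusters had been seen. Doublets were not otherwise removed.

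UMIs were summed per class and library and divided by the class total. A gene counted as higher or lower at 2-fold or more with at least 50 UMIs, and a count of 0 was set to 3 UMIs. Intervals are exact Poisson, binomial or conditional binomial intervals. The ratios were checked on simulated Poisson counts without variation between cells or samples, so that check says nothing about such variation. No test was made, since each condition is 1 library. Named genes are all members, other complement genes at 20 CPM or more and at least 2-fold apart, and for each member the 3 most similar genes. The members and lists were chosen with earlier results of these data known. Alternatives were a limit of 2500 genes, 10% mitochondrial UMIs, classes from each cell's own markers, removal of cells by doublet score, median centring, subtraction of B-cell-like levels, equal weight of cells and 1.5-fold. The values of 1 other complement gene are not reported here.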

Additional observations from a re-analysis of the deposited data

Results flagged for a closer look

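The class ratios of *C3* had opposite signs. The log2 ratio of CPM, IR over sham, was 1.30 (1.18 to 1.43) in macrophage/monocyte-like cells and 0.94 (0.50 to 1.43) in neutrophil-like cells, and -0.27 (-0.30 to -0.23) in fibroblast-like cells. The ratio in macrophage/monocyte-like cells exceeded that in fibroblast-like cells by 1.57, and the ratio in neutrophil-like cells exceeded it by 1.21, both on the log2 scale. With 1 library per condition this difference was not tested. The ratio in macrophage/monocyte-like cells was 2.58 at 10% mitochondrial UMIs and 2.52 after removal of cells by doublet score, and that in neutrophil-like cells was 0.41 with classes from own markers. The classes were made of different subclusters in each library. In Ly6c2 monocytes, found in both, *C3* was at 368.7 CPM (310 to 436) in 37 sham cells and 204.4 CPM (191 to 219) in IR, and in blood-like neutrophils it was at 93.3 CPM (54.3 to 149) and 74.0 CPM (61.2 to 88.6).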

How the results depend on the processing

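No paired analysis was possible because the cells of each condition's samples are pooled in 1 matrix. The counts of members at least 2-fold higher (1) and lower (5) in macrophage/monocyte-like cells were the same under every alternative except the 1.5-fold threshold, where 2 were higher. In fibroblast-like cells the higher count was 0 instead of 1 with the limit of 2500 genes, own-marker classes, subtraction of B-cell-like levels or left-out subclusters kept (an alternative added after the data were seen), and the lower count was 1 instead of 4 with the limit of 2500 genes (6 members with enough UMIs) or the subtraction (2 members), and 5 with own-marker classes or left-out subclusters kept. In neutrophil-like cells the higher count was 1 instead of 0 with median centring, own-marker classes, left-out subclusters kept or the 1.5-fold threshold, and the lower count was 0 instead of 3 after the subtraction and 4 with own-marker classes. The ratio of *Cfp* in fibroblast-like cells was 0.98 with the limit of 2500 genes against -0.53, and the cause was not tested. That limit also put *C4b* in fibroblast-like cells at -0.95, and own-marker classes put *C5ar1* in neutrophil-like cells at 1.15.

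Shares depended on which cells were kept. The C1q share of the macrophage/monocyte class, 81.3% in sham and 89.6% in IR, was 94.8% and 91.7% with the limit of 2500 genes, 90.7% and 91.8% with own-marker classes, 94.8% and 97.5% after removal of cells by doublet score, and 88.4% and 95.1% with left-out subclusters kept, and in IR it was 89.8% at 10% mitochondrial UMIs. The *C3* share of fibroblast-like cells, 71.4% and 58.96%, was 89.0% and 18.4% with the limit of 2500 genes, 89.5% and 73.8% with own-marker classes, 80.4% and 73.7% after removal by doublet score, and 79.8% and 70.8% with left-out subclusters kept. The limit of 2500 genes leaves out 86.1% of the fibroblast-like cells of IR and 13.5% of those of sham. Of 173 single ratios, 169 kept their direction, 164 their side of 2-fold and 106 stayed within the interval of the reported ratio.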

Other observations

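NK-like cells of sham had C1q at 2361 CPM, all 3 chains were found in 9.61% (6.92 to 12.9) of 406 cells, and the same class in IR had 288.7 CPM. Endothelial-like cells had 1386 CPM in sham and 300.3 CPM in IR, and mural-like cells 694.4 and 34.9 CPM. The 52 Schwann-like cells of sham had 2424 CPM. In the NK-like, endothelial-like and mural-like cells of sham, *C1qa* made up 36.4% (35.0 to 37.9), 38.8% (37.2 to 40.5) and 38.7% (36.3 to 41.2) of C1q UMIs. It made up 36.7% (36.6 to 36.9) in macrophage/monocyte-like cells of sham. Other sham classes were also near this, with 37.6% (31.9 to 43.6) in T-cell-like and 39.7% (34.7 to 44.8) in Schwann-like cells. B-cell-like cells had 33.7% (30.8 to 36.7) and fibroblast-like cells 33.8% (31.6 to 36.1).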
